A study of Mus musculus with 10 samples.

Results

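The genes described here are the inhibitors of RAS-ERK signalling of the SPRED and Sprouty families (Spred1, Spred2, Spred3, Spry1, Spry2, Spry3 and Spry4) together with Nf1, which encodes neurofibromin. They were chosen by gene symbol, and the 8 symbols were all present among the 25078 genes of the deposited count table. Expression was measured by RNA sequencing, after ribosomal RNA depletion, in LSK cells sorted from mouse bone marrow. This population lacks lineage markers, carries Sca-1 and c-Kit, and contains the hematopoietic stem cells and multipotent progenitors. The mice of both genotypes carried the Cbfb56M allele, a conditional knock-in of the leukemic fusion gene Cbfb-MYH11 (CM) on one copy of Cbfb, and Mx1-Cre. Mx1-Cre is switched on by interferon, which poly(I:C) induces, and it acts in many cell types besides LSK cells. The CM mice had an intact miR-126 gene, and CM/miR-126Δ/Δ mice also carried floxed alleles of miR-126 on both chromosomes, so that poly(I:C) activated CM and deleted miR-126 in the same animals. All lines were backcrossed to C57BL/6, and the study used young adults of both sexes. The labels place every sample 6 weeks after poly(I:C), at a preleukemic stage. There were 5 CM and 5 CM/miR-126Δ/Δ mice, numbered 1 to 5 within each genotype, with 1 library per mouse. The samples analysed here include no mice without CM, so every comparison is between leukemia-prone genotypes with and without miR-126.

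Receptor tyrosine kinases such as c-Kit and Flt3 load RAS with GTP, and RAS-GTP activates the RAF, MEK and ERK kinases. SPRED proteins carry an EVH1 domain that binds neurofibromin and brings it to the plasma membrane, where neurofibromin, a GTPase-activating protein, makes RAS hydrolyse its GTP. Sprouty proteins share a cysteine-rich C-terminal domain with the SPREDs, and their genes are themselves induced by ERK, which makes them feedback inhibitors. MiR-126 is an abundant microRNA of hematopoietic stem cells and of endothelium, and SPRED1 is among its known targets.

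The mature microRNA and the places where its seed can pair with the family are shown first, because microRNAs act by pairing their seed with target mRNAs. The seed (bases 2 to 8) is in capitals in the RefSeq mature sequence, which lies at chr2:26591402-26591423 on the plus strand of GRCm38.p6, within the gene Egfl7:
mmu-miR-126a-3p: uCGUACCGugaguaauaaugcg

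The 3′ untranslated regions of the reference transcripts were searched on the sense strand for GGTACG, which pairs with bases 2 to 7 of the microRNA. For each gene the transcript with the longest coding sequence was used. A match was present once in Spred1, once in Nf1 and once in Plk2, a kinase gene that the study examined beside Spred1. In the sequences below, the match is in capitals, together with the A after it where there is one (the base opposite base 1 of the microRNA).
Spred1, match at position 511 of a 3′ untranslated region of 4330 bases: atttaactaaatgtaaGGTACGAactatga
Nf1, match at position 920 of 3216 bases: cgtagcaaaatggaatGGTACGtgacatag
Plk2, match in a 3′ untranslated region of 620 bases: aagtcggacaggtggtGGTACGAatacaat

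Positions count from the first base of the 3′ untranslated region to the first base of the match. Spred1 and Plk2 thus held the 7-base form GGTACGA and Nf1 the 6-base form only. No member held CGGTACG, which pairs with the whole seed. Spred2, Spred3, Spry1, Spry2 and Spry4 had no match in 3′ untranslated regions of 2579, 2697, 1047, 854 and 3538 bases. Spry3 was not searched. Of 19915 genes with a 3′ untranslated region in the same reference, 472 (2.37%) held GGTACG and 0.567% held GGTACGA. Among the 838 genes whose region was within 20% of the length of that of Spred1, these shares were 8.35% and 1.67%. A match describes letters in a reference transcript, and binding was not measured.

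Counts on genes totalled 23649233 to 33202086 in the CM libraries and 24141663 to 26615091 in the CM/miR-126Δ/Δ libraries. At this depth 3 counts, taken as the smallest level that could be told from 0, corresponded to 0.0908 to 0.131 CPM (a gene's count scaled by library size, which was adjusted by the TMM method). The limit covers counting error only. The deletion was examined in the precursor of the microRNA. In CM mice 1 to 5, 4, 5, 0, 2 and 3 reads fell on Mir126a, against 0 in all 5 CM/miR-126Δ/Δ mice (two-sided exact permutation test, p = 0.0476). Mir126b, the precursor on the opposite strand, had 1 read in CM mice 2 and 4 and 0 in the other 8 mice (exact permutation test, p = 0.444). These are near the limit of detection in libraries made from long RNA. By the limit of 3 counts, CM mouse 3 (0 reads on Mir126a) and CM mouse 4 (2 reads) could not be told from the mice with the deletion. Egfl7, the host gene, averaged 114 ± 20.0 CPM with and 107.1 ± 12.2 CPM without miR-126 (SD, n = 5 each).

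Among 7 markers of LSK cells and their subsets, Cd34 (943 CPM in CM on average) and Kit (859 CPM) were the most abundant, and none of the 7 markers was at 0. Only Kit and Ly6a, which encodes Sca-1, are part of the gate itself. Ly6a averaged 57.2 CPM per kilobase of exon in CM and 58.4 in CM/miR-126Δ/Δ mice. The 7 markers together were at 3006 ± 139 CPM in mice with and 3042 ± 242 CPM in mice without miR-126 (SD, n = 5 each). In contrast, the 6 B cell markers, mostly Cd79b, summed to 33.3 ± 5.24 and 29.8 ± 5.72 CPM, and the 6 T cell markers, mostly Cd4, to 8.16 ± 2.97 and 7.52 ± 2.14 CPM. In RNA from a sorted population, a change in the number of cells of a type and a change in RNA per cell cannot be told apart.

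Compared per length, in RPKM (CPM per kilobase of exon), Spred1 and Spred2 were the most abundant members. Over the 10 libraries the mean level was 19.1 RPKM for Spred1, 15.3 RPKM for Spred2, 10.1 RPKM for Nf1, 9.94 RPKM for Spry2, 5.77 RPKM for Spry1, 2.88 RPKM for Spred3 and 0.356 RPKM for Spry4. Spred1 was above Spred2, and Spred2 above Nf1, in 10 of 10 libraries. Nf1 and Spry2 could not be ordered, since Nf1 was the higher of the pair in 4 of 10 libraries. Spry2 was above Spry1 in 9 of 10 libraries, Spry1 above Spred3 in 7 of 10, and Spred3 above Spry4 in 10 of 10. Spry3 (mm10 contig X_GL456233_random, 101352 to 106392, minus strand) had no count in any library, which allows a level of up to 0.0908 to 0.131 CPM. LSK cells thus held mRNA of each SPRED gene, of Nf1, and of Spry1, Spry2 and Spry4, and 6 of the 8 members passed a mean RPKM of 1 in at least 1 genotype. Whether Spry3 mRNA was absent was not tested.

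The 7 SPRED and Sprouty genes summed to 54.0 ± 12.4 RPKM in CM and 52.8 ± 7.71 RPKM in CM/miR-126Δ/Δ mice (SD, n = 5 each). The composition of this sum had a larger share of Spred1 in CM/miR-126Δ/Δ mice (38.5% ± 2.36 against 34.1% ± 4.92 in CM) and a smaller share of Spry1 (7.50% ± 2.96 against 13.0% ± 4.31). The share of Spred2 was 28.5% ± 1.20 in CM and 29.0% ± 1.54 in CM/miR-126Δ/Δ, and that of Spry2 was 18.1% ± 1.27 and 19.0% ± 1.33. Shares of a sum are not independent of each other, and they were not tested.

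**Figure D1:**
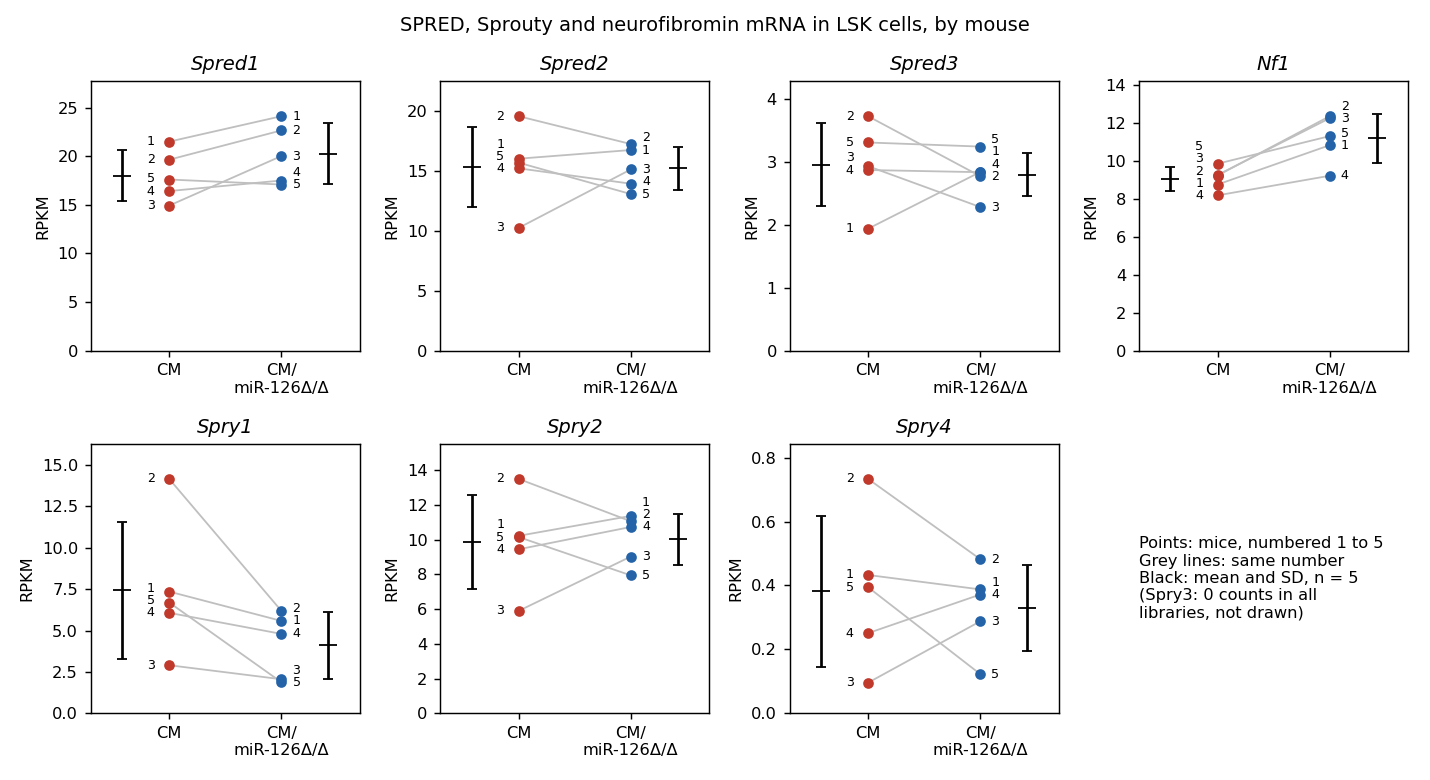
Level of each member in RPKM (vertical axes, linear from 0) in the 5 CM mice (red) and the 5 CM/miR-126Δ/Δ mice (blue). Points are mice with their numbers, grey lines join mice of the same number, and black bars give the mean and SD; all 5 lines go up for Nf1 and down for Spry1, while the lines of the other members cross in direction.

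To compare the genotypes, edgeR's quasi-likelihood test was run on all 18747 genes with a count. Calls required an unadjusted p of 0.01 or less, a change of 1.5-fold or more and an average RPKM of 1 or more in a genotype, the cutoffs of p and fold used by the study. With genotype as the only term, 54 genes (0.288% of those tested) were called, and 2 (0.0107%) had a Benjamini-Hochberg adjusted p under 0.05. None of the 7 members fitted was among them. At an unadjusted p under 0.05, which 1239 genes (6.61%) passed, 1 member was higher in CM/miR-126Δ/Δ mice (Nf1) and 1 was lower (Spry1). With DESeq2, or after filterByExpr removed genes of low count, Spry1 no longer passed an unadjusted p of 0.05, at log2 fold changes of -0.85 and -0.84 beside -0.86 in the edgeR fit of all genes, and Nf1 did. The deviations of same-numbered mice from their genotype means were correlated for every number (r over genes, 0.172 to 0.465), so a fit blocked by replicate number was added. Only 3 of the 5 CM mice and 2 of the 5 CM/miR-126Δ/Δ mice correlated best with the mouse of their own number, and the highest value of all, 0.499, was between CM mouse 5 and CM/miR-126Δ/Δ mouse 4. In the blocked fit, 115 genes (0.613%) were called, 20 (0.107%) had an adjusted p under 0.05 and 1666 (8.89%) had an unadjusted p under 0.05. In that fit Spry1 was called, and Spred1 joined Nf1 among the members higher at an unadjusted p under 0.05. No member had an adjusted p under 0.05 in either fit.

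**Figure D2:**
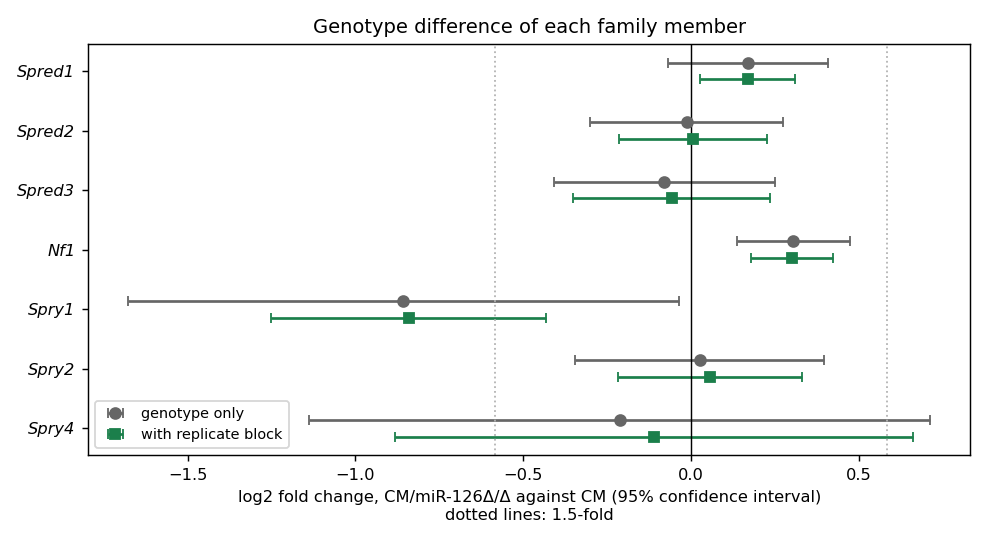
Log2 fold change of each fitted member in CM/miR-126Δ/Δ against CM mice (horizontal axis) with its 95% confidence interval, fitted by genotype alone (grey circles) or blocked by replicate number (green squares). Dotted lines mark a 1.5-fold change; with the block the intervals of Spred1 and Nf1 lie above 0 and that of Spry1 below 0.

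Spred1 (chr2:117121071-117182277, plus strand, mm10), the most abundant member and the one with the 7-base match, was at 152, 139, 106, 116 and 125 CPM in CM mice 1 to 5. It was at 171, 160.4, 142, 124 and 121 CPM in the same-numbered mice without miR-126. The genotypes overlapped, and the level was higher without miR-126 in 4 of the 5 pairs, by up to 0.42 on the log2 scale in pair 3, and lower by 0.04 in pair 5. The means were 128 ± 18.4 and 144 ± 21.9 CPM (SD, n = 5 each), with a log2 fold change of 0.17 (SE 0.11, 95% confidence interval -0.07 to 0.41; edgeR, adjusted p = 0.765). With the replicate block the estimate was the same and its interval narrower, 0.17 (SE 0.06, 0.03 to 0.31; edgeR, adjusted p = 0.453). Its unadjusted p was under 0.05 with the block and not without it. It lost that in 2 of the 5 fits that left out a pair, at an estimate of 0.11 without pair 3 and of 0.16 without pair 2. An exact test over the pairs gave p = 0.125, where 5 pairs can give no less than 0.0625. Thus the data allow a rise of Spred1 mRNA of up to 0.41 on the log2 scale, and a 1.5-fold rise lies outside both intervals.

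Nf1 (chr11:79339892-79581609, plus strand), the RAS GTPase-activating protein that SPREDs recruit, had the smallest p of the members in both fits. Its level was 104, 109, 109.6, 96.9 and 117 CPM in CM mice 1 to 5 and 128, 146, 145, 109 and 134 CPM in CM/miR-126Δ/Δ mice 1 to 5. The level was higher without miR-126 in 5 of 5 pairs, by 0.17 to 0.42 on the log2 scale, and only CM/miR-126Δ/Δ mouse 4 lay within the range of the CM mice. The means were 107 ± 7.38 and 133 ± 15.1 CPM (SD, n = 5 each; two-sided exact permutation test, p = 0.0317, or 0.0625 over the pairs, the smallest that 5 pairs can give), with a log2 fold change of 0.31 (SE 0.08, 95% confidence interval 0.14 to 0.47; edgeR, adjusted p = 0.514). With the replicate block it was 0.30 (SE 0.06, 0.18 to 0.42; edgeR, adjusted p = 0.0787). The difference was below the 1.5-fold cutoff in both fits, and the unadjusted p was under 0.05 in 10 of 10 fits that left out 1 mouse. Nf1 is a long gene (locus of 241718 bases), and fold changes varied with locus width over all genes, with a median log2 fold change of -0.08 in the second decile of width and of 0.07 in the widest decile. With this trend removed, the log2 fold change of Nf1 was 0.22 (0.21 with the block), and that of Spred1 was 0.15 in both fits. The part of the width trend in the difference of Nf1 was not tested further.

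Spred2 (chr11:19924442-20022597, plus strand), which also recruits neurofibromin, was at 46.0, 56.2, 29.4, 43.7 and 45.1 CPM in CM mice and at 48.1, 49.5, 43.4, 40.0 and 37.5 CPM in CM/miR-126Δ/Δ mice 1 to 5. The CM mice enclosed all CM/miR-126Δ/Δ mice, with CM mouse 2 the highest and CM mouse 3 the lowest of the 10. The log2 fold change was -0.01 (95% confidence interval -0.30 to 0.27; edgeR, adjusted p = 0.982). Spred3 (chr7:29158829-29168647, minus strand), the least abundant SPRED, was at 7.87, 15.1, 11.9, 11.7 and 13.4 CPM in the CM mice and at 11.5, 11.3, 9.27, 11.5 and 13.2 CPM in CM/miR-126Δ/Δ mice 1 to 5. Here CM mouse 1 was the lowest library and CM mouse 2 the highest. The log2 fold change was -0.08 (95% confidence interval -0.41 to 0.25; edgeR, adjusted p = 0.919). For both genes a 1.5-fold difference in either direction was outside the interval.

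Spry1 (chr3:37639947-37644599, plus strand), a feedback inhibitor induced by receptor tyrosine kinases, differed most in size. It was at 18.3, 35.3, 7.24, 15.1 and 16.7 CPM in CM mice 1 to 5 and at 13.9, 15.4, 5.14, 11.96 and 4.69 CPM in CM/miR-126Δ/Δ mice 1 to 5. The level was lower without miR-126 in 5 of 5 pairs, by 0.34 to 1.81 on the log2 scale, but the genotypes overlapped, with CM mouse 3 below 3 of the CM/miR-126Δ/Δ mice and CM mouse 4 below 1. The level varied 7.51-fold over the 10 mice. The means were 18.5 ± 10.3 and 10.2 ± 5.00 CPM (SD, n = 5 each; two-sided exact permutation test, p = 0.135, or 0.0625 over the pairs). With genotype alone the log2 fold change was -0.86 (SE 0.38, 95% confidence interval -1.68 to -0.04; edgeR, adjusted p = 0.748), and without CM mouse 2 it was -0.49 and did not pass an unadjusted p of 0.05. With the replicate block it was -0.84 (SE 0.19, -1.25 to -0.43; edgeR, adjusted p = 0.154), past the cutoffs of p, fold change and RPKM. It stayed past the cutoffs of p and fold change in 5 of 5 fits that left out a pair, with a log2 fold change of -0.96 to -0.62.

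Spry2 (chr14:105891947-105896819, minus strand), the most abundant Sprouty gene, was at 21.3, 28.2, 12.3, 19.7 and 21.2 CPM in the CM mice and at 23.7, 23.1, 18.9, 22.4 and 16.6 CPM in CM/miR-126Δ/Δ mice 1 to 5. As for Spred2, CM mouse 2 was highest and CM mouse 3 lowest. Its log2 fold change was 0.03 (95% confidence interval -0.34 to 0.39; edgeR, adjusted p = 0.977). Spry4 (chromosome 18) was at 2.03, 3.44, 0.450, 1.18 and 1.85 CPM in the CM mice and at 1.82, 2.26, 1.35, 1.74 and 0.576 CPM in CM/miR-126Δ/Δ mice 1 to 5. These levels rest on 11 to 104 counts a library. The log2 fold change was -0.21 with an interval of -1.14 to 0.71 (edgeR, adjusted p = 0.926), which is wider than 1.5-fold on both sides. The difference between Spry1 and the other Sproutys in their response to genotype was not tested.

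Plk2 (chr13:110395044-110400843, plus strand), outside the family but with the 7-base match, was at 12.4, 37.0, 2.87, 7.80 and 8.95 CPM in the CM mice and at 10.3, 10.5, 0.958, 8.79 and 1.28 CPM in CM/miR-126Δ/Δ mice 1 to 5. The spread between mice (38.6-fold) was larger than for any member, and the genotypes overlapped. The log2 fold change was -1.11 (SE 0.66, 95% confidence interval -2.53 to 0.30; edgeR, adjusted p = 0.765), and -1.14 (SE 0.34; edgeR, adjusted p = 0.280) with the block, where Plk2, like Spry1, was past the cutoffs of p, fold change and RPKM. Without CM mouse 2, the highest, the estimate with genotype alone was -0.33 (edgeR, adjusted p = 0.920). In the blocked fits that left out a pair it was -1.51 to -0.79, and the cutoffs of p and fold change were passed in 2 of 5, not without pair 2, 3 or 5. Of the 3 genes with a seed match, Spred1 and Nf1 were thus at positive estimates and Plk2 at a negative one. With genotype alone the 95% confidence intervals of Spred1 and Plk2 include 0 and that of Nf1 does not, and with the block none of the 3 includes 0 (-1.87 to -0.40 for Plk2).

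The members fell into separate patterns across the mice. Spred2, Spry2 and Spry4 followed each other (Pearson r of log2 CPM over the 10 libraries, 0.92 to 0.95), and they were high in CM mouse 2 and low in CM mouse 3. Spry1 was less like these (0.71 with Spred2, 0.75 with Spry2 and 0.81 with Spry4) and was also low in CM/miR-126Δ/Δ mice 3 and 5. Spred1 was closest to Spred2 (0.73), Spry2 (0.67) and Spry4 (0.67), and was at 0.46 with Nf1 and 0.34 with Spry1. Nf1 and Spry1 went in opposite directions (-0.47). Spred3 was not close to any other member (-0.35 to 0.22). These correlations share 10 libraries and their scaling, and they are descriptions.

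From 11681 other genes that reached an average RPKM of 1, the 3 most like each member were taken by Pearson r of log2 CPM over the 10 libraries. Those of Spry1 were Plk2 (0.98, Spearman 0.90), Klf2 (0.98, Spearman 0.81), a transcription factor of quiescent blood cells, and Sik1 (0.97, Spearman 0.78), a salt-inducible kinase. Those of Spred2 were Etv5 (0.96), Spry2 (0.94) and Gcc1 (0.94), and those of Spry2 were Dusp4 (0.97), Spred2 (0.94) and Jag2 (0.94). Etv5, an ETS transcription factor, and Dusp4, a phosphatase of MAP kinases, are known products of ERK signalling. Those of Nf1 were Lrba (0.98), Xrn1 (0.97) and Zfp292 (0.95), those of Spred1 were Lgalsl (0.96), Rnf19a (0.95) and Bhlhb9 (0.92), and those of Spred3 were Ap4m1, Kcnd1 and Brd8 (0.94, 0.94 and 0.92). Without the 2 libraries farthest from the member's median, the r of Spred2 with Spry2 was 0.74, and that of the other pairs was 0.85 to 0.97. The top 3 of 11681 values over only 10 libraries are high partly by selection. No chance level was computed, so these likenesses are descriptions.

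**Figure D3:**
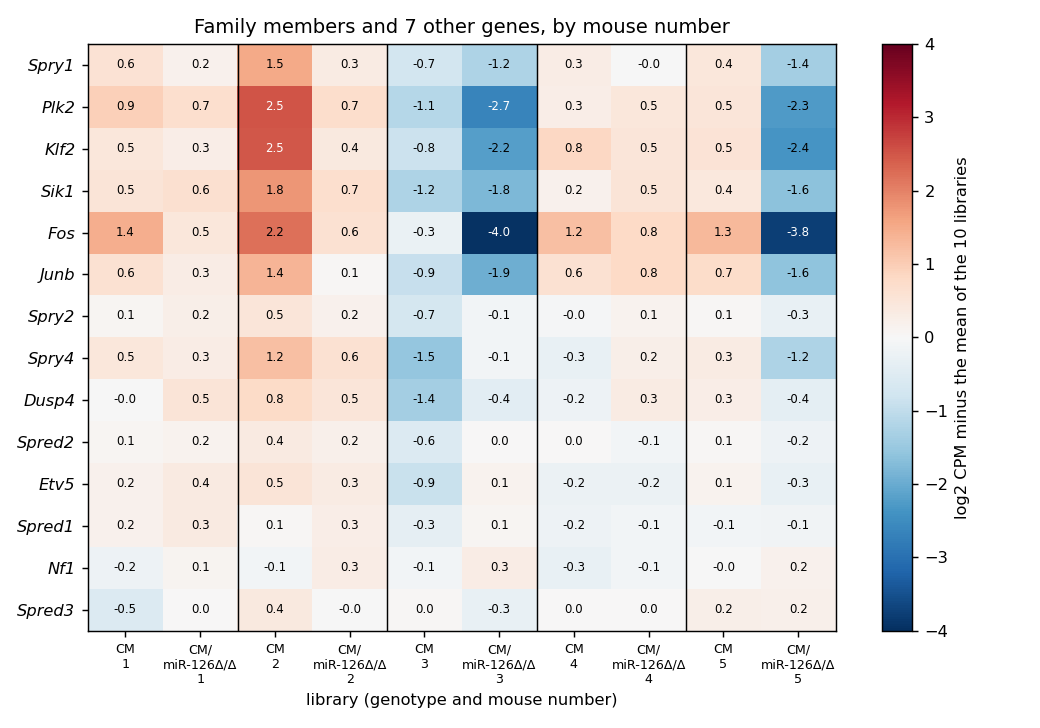
Log2 CPM of the 7 detected members and of 7 other genes in each library, less the gene's mean over the 10 libraries (colour and printed value), with same-numbered mice side by side. Spry1, Plk2, Klf2, Sik1, Fos and Junb are lowest in CM/miR-126Δ/Δ mice 3 and 5 and highest in CM mouse 2, whereas Spry2, Spred2, Dusp4 and Etv5 are lowest in CM mouse 3.

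Upstream of and around the family, 5 of 74 genes in 5 lists (6.76%) had an unadjusted p under 0.05 with genotype alone, a share near the 6.61% of all genes tested, and 12 (16.2%) had one with the block, where the share of all genes was 8.89%. Of 20 RAS proteins, exchange factors and adaptors, 1 was higher at an unadjusted p under 0.05 and 0 were lower. This gene was Frs2, an adaptor of FGF receptors, with a log2 fold change of 0.20 (SE 0.06; edgeR, adjusted p = 0.661). The most abundant, Grb2 and Nras, were at log2 fold changes of -0.04 and -0.03. Of the 9 other RAS GTPase-activating proteins, 1 was lower, Rasal3 (-0.15, SE 0.06; edgeR, adjusted p = 0.746), which is found in blood cells, and Rasa3, the most abundant, was at -0.07. None of the 18 RAF, MEK and ERK kinases and scaffolds had an unadjusted p under 0.05 (the most abundant, Iqgap1 and Mknk2, were at 0.05 and -0.01), and 2 were higher with the block. Among 14 growth factor and cytokine receptors 2 were lower, the subunits Csf2ra (-0.28) and Csf2rb (-0.21) of the GM-CSF receptor (edgeR, adjusted p = 0.746 for both), and Flt3, the most abundant, was at -0.05. With the block 4 receptors were lower, Csf1r (-0.25) and Kdr (-0.51) besides the GM-CSF receptor subunits, and 1 was higher, Fgfr1 (0.31), these 3 named after their values were seen (edgeR, adjusted p of 0.278 to 0.446). Of 13 binding partners and regulators of the SPRED and Sprouty proteins, 1 was higher, Cblb (0.14, SE 0.06; edgeR, adjusted p = 0.748), a ubiquitin ligase. Kit and Nedd4, the most abundant partners, were at 0.11 and -0.02. The medians of these 5 lists lay between -0.05 and 0.03, beside -0.02 over every gene that reached an average RPKM of 1, and no member of a list had an adjusted p under 0.05 in either fit.

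**Figure D4:**
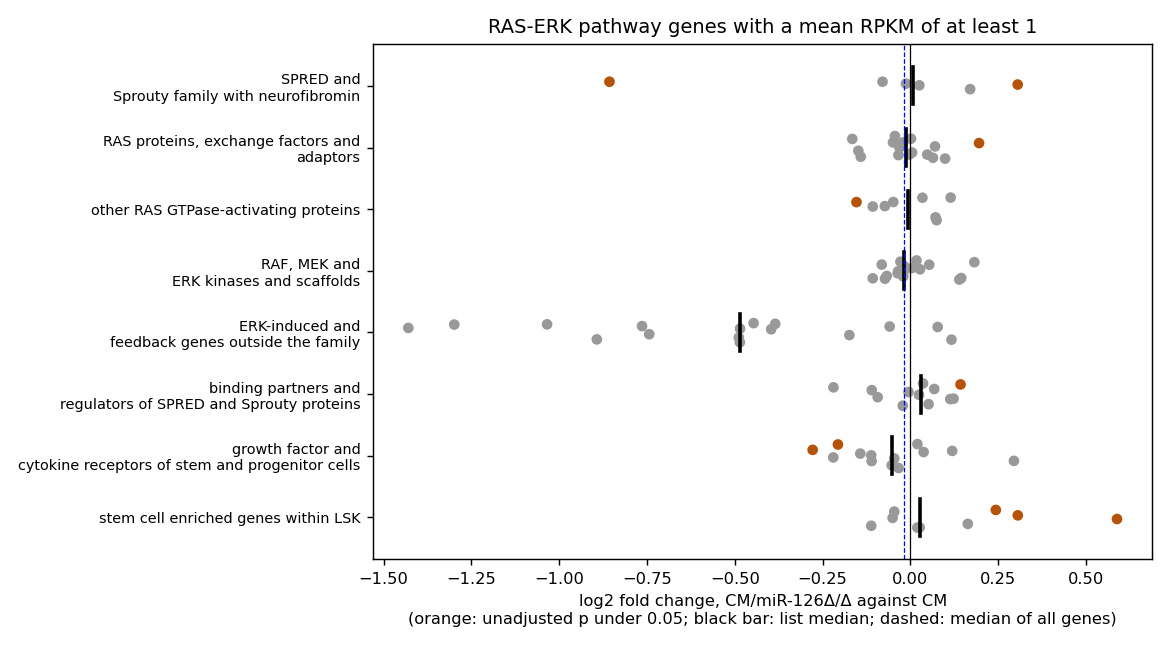
Log2 fold change (horizontal axis, genotype as the only term) of the genes of each list that reached an average RPKM of 1 in a genotype. Each point is a gene, orange where the unadjusted p was under 0.05, black bars are list medians and the dashed line is the median of all genes; the ERK-induced list has its median at -0.49, and the medians of the other 7 lists lie between -0.05 and 0.03.

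Downstream, most of the ERK-induced and feedback genes outside the family had lower estimates. Of the 25 genes, 16 had a mean RPKM of at least 1, and 14 of these were lower and 2 higher in CM/miR-126Δ/Δ mice. The 2 higher were Dusp4 (log2 fold change 0.12, SE 0.30, and 0.20 with the block) and Etv5 (0.08, SE 0.21, and 0.12 with the block). Their median log2 fold change was -0.49, beside -0.02 over every gene that reached an average RPKM of 1. With genotype alone 1 gene of the 25 had an unadjusted p under 0.05 (Epha2, log2 fold change -0.86, SE 0.34; edgeR, adjusted p = 0.746), as did 6.61% of all genes. Of the 25, 0 were called (0.288% of all genes). With the block 7 were lower at an unadjusted p under 0.05 (8.89% of all genes in either direction), 0 were higher and 4 were called (0.613% of all genes), namely Fos (-2.19, SE 0.56), Fosb (-1.99, SE 0.56), Jun (-0.96, SE 0.27) and Junb (-0.94, SE 0.27), with adjusted p of 0.204 to 0.255 (edgeR). With genotype alone these 4 were at -1.43 (SE 0.74), -1.30 (SE 0.76), -0.74 (SE 0.40) and -0.76 (SE 0.46), and none had an unadjusted p under 0.05. Fosb, Jun and Junb are named because they were called, a choice made after their values were seen. These genes encode subunits of the AP-1 transcription factor and are immediate early genes, induced within minutes by many stimuli, cell handling included. Myc, an abundant gene of the list, was at -0.17 (SE 0.12; edgeR, adjusted p = 0.765).

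These genes varied widely between mice. Fos was at 725, 1220.5, 225, 616 and 649 CPM in CM mice 1 to 5 and at 369, 406, 17.1, 464 and 19.4 CPM in CM/miR-126Δ/Δ mice 1 to 5. CM/miR-126Δ/Δ mice 3 and 5 were thus far below the other 8 mice. The summed level of the 25 genes was 3261, 5913, 1541, 3221 and 3808 CPM in the CM mice and 2706, 2555, 973, 3306 and 841 CPM in CM/miR-126Δ/Δ mice 1 to 5. In the same mice 3 and 5, Spry1 and Plk2 had their lowest levels. Leaving out mice that were low in both Fos and Spry1 makes the differences of Spry1 and of this list smaller by construction. The mice were picked by their values, and the levels of members are related across mice. The next values thus describe the other mice and are no test of the list, of Spry1 or of any other member. Without these 2 libraries Nf1 was at 0.26 with an unadjusted p under 0.05 (edgeR, adjusted p = 0.778), which 5.9% of genes had. Spry1 was at -0.43 and did not pass an unadjusted p of 0.05. With pairs 3 and 5 left out of the blocked fit, Spry1 was at -0.65, Nf1 at 0.30 and Spred1 at 0.15 (edgeR, adjusted p = 0.320, 0.267 and 0.442), each with an unadjusted p under 0.05, which 9.91% of genes had. With genotype alone the median of the ERK-induced list was -0.49 in all mice and -0.17 without the 2 libraries. There 12 genes were lower and 4 higher, 2 of the 25 were lower at an unadjusted p under 0.05 and 0 were called. With the block the median was -0.54 with all pairs and -0.29 without pairs 3 and 5, with 13 genes lower and 3 higher. In this last fit 6 of the 25 were lower at an unadjusted p under 0.05 and 2 were called, where 0.484% of genes were called. The part of immediate early genes in the difference of Spry1 was not tested. The RNA concentrations in the labels were 16.1 and 18.2 ng per µl in these 2 samples, 20 to 29.5 ng per µl in the other CM/miR-126Δ/Δ samples and 20.6 to 40.9 ng per µl in the CM samples. The same libraries had counts on 15983 and 16058 genes, the fewest of the 10 (16191 to 16698 in the others). The 45S ribosomal RNA gene Rn45s took 22.56% of the counts in CM/miR-126Δ/Δ mouse 3, the highest share, and 18.6% in mouse 5, against 14.8% to 18.6% in the other 8 libraries. The part of RNA amount and quality in these differences was not tested.

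Within the LSK gate, some markers of stem cells also differed at an unadjusted p. Of 9 genes enriched in stem cells within LSK, 3 were higher in CM/miR-126Δ/Δ mice at an unadjusted p under 0.05 (6.61% of all genes in either direction) and 0 were lower, and the list median was 0.03. These were Hlf (0.31, SE 0.10), Hoxb5 (0.59, SE 0.21) and Mecom (0.24, SE 0.11), transcription factors of stem cells, each higher in 5 of 5 pairs (edgeR, adjusted p of 0.661 to 0.748). The summed level of the 9 genes was 912, 875, 776, 901 and 1043 CPM in the CM mice and 1198, 1175, 966, 915 and 1023 CPM in CM/miR-126Δ/Δ mice 1 to 5, with Hlf as the most abundant gene and none at 0. Without CM/miR-126Δ/Δ mice 3 and 5 the list median was 0.16 with genotype alone, and without pairs 3 and 5 it was 0.15 with the block. In both of these fits 8 of the 9 genes were higher and 1 was lower. In each, 4 were higher at an unadjusted p under 0.05, which 5.9% and 9.91% of all genes had in either direction. Whether the differences of Spred1 and Nf1 follow the makeup of the LSK population was not tested. Of the 7 markers of LSK cells and their subsets, Meis1 was higher (0.19, SE 0.07; edgeR, adjusted p = 0.746).

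Among markers of mature lineages, several granulocyte genes varied widely between libraries. Of the 9 granulocyte and monocyte markers, 8 had a mean RPKM of 1 or more in a genotype, and 7 of these were at higher and 1 at lower estimates in CM/miR-126Δ/Δ mice, with a median log2 fold change of 0.67. With the block of all pairs 6 were at higher and 2 at lower estimates, with a median of 0.29. With genotype alone only Itgam passed an unadjusted p of 0.05 (-0.35, SE 0.15; edgeR, adjusted p = 0.746). S100a8, S100a9 and Camp, granule and cytosolic proteins of neutrophils named after their values were seen, were at 0.92 (SE 1.12), 0.93 (SE 1.16) and 1.14 (SE 1.30) with genotype alone, and at 0.35, 0.35 and 0.54 with the block. S100a9 was at 0.817, 1.19, 8.39, 12.8 and 41.8 CPM in CM mice 1 to 5 and at 3.82, 8.40, 0.566, 109.3 and 1.69 CPM in CM/miR-126Δ/Δ mice 1 to 5. It was thus higher without miR-126 in pairs 1, 2 and 4, lower in pairs 3 and 5, and highest of all in CM/miR-126Δ/Δ mouse 4. In the blocked fit without pairs 3 and 5, from which values of Spry1, Nf1 and Spred1 are given above, 6 of the 9 markers were higher at an unadjusted p under 0.05, 5 were called and 5 had an adjusted p under 0.05, which 15 genes (0.0816%) had in all, with a list median of 2.88. The part of granulocyte RNA in those values was not tested. The summed level of the list, most of it Mpo, was 2366 ± 572 CPM with and 2422 ± 899 CPM without miR-126 (SD, n = 5 each). With all 10 libraries, no other list of a mature lineage had a gene at an unadjusted p under 0.05 with genotype alone. With the block, which gives the call of Spry1, Itga2b of the megakaryocyte list was lower (-0.27, SE 0.08; edgeR, adjusted p = 0.274) in 5 of 5 pairs, and 1 gene each of the B cell (Ebf1, -0.79), endothelial (Kdr, -0.51) and erythroid (Car1, 1.03) lists passed an unadjusted p of 0.05, of which Ebf1 and Kdr are named after their values were seen. The endothelial list, whose cells express miR-126, summed to 276 ± 26.8 and 264 ± 22.0 CPM, most of it Pecam1 (191 CPM), which blood cells also express. Megakaryocyte markers summed to 182 ± 27.0 and 154 ± 31.1 CPM, with Itga2b as the most abundant gene. Erythroid markers summed to 71.7 ± 48.5 and 81.8 ± 31.7 CPM, with Car1 leading and 2 of the 8 listed at 0 in all libraries. Mast cell and basophil markers summed to 221 ± 60.6 and 202 ± 41.6 CPM, with Cpa3 leading.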

How the data were processed

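RNA sequencing libraries of LSK cells from 5 CM and 5 CM/miR-126Δ/Δ mice, 1 per mouse, were grouped by the titles of the samples. The libraries were made with a stranded kit after ribosomal RNA depletion. Per the labels, the submitters' processing notes name bcl2fastq 2.18.0.12, TopHat2 and HTSeq 0.6.1p1 and the build mm10. The authors deposited raw counts, whole numbers of reads per RefSeq gene without normalization. Whether counting used the strand is not given in the sources used here, so overlapping genes can share reads. The authors also deposited a table called normalized, whose signal is the count over a constant of the library and is not divided by gene length. Whole reads were recovered from it for 100% of values (within 0.001), and they gave the same 54 calls. Test design had assumed deposited RPKM. RPKM was instead computed from counts, deposited exon length and TMM-scaled library size.

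The counts were tested with edgeR 4.0.16 under R 4.3.3 (TMM, glmQLFit and glmQLFTest, two-sided, genotype as the only term), with Benjamini-Hochberg adjustment over 18747 genes. Log2 CPM for plots and correlations used a prior count of 2. On simulated data for this genotype comparison (18375 genes, 200 changed), the fit recovered 96% of 2-fold and 99% of 4-fold changes at an adjusted p under 0.05. The 200 genes were drawn from those of higher mean count. Counts were simulated independently for each gene and mouse, with no pairing and no swings shared between genes. These shares thus do not give the power for genes as variable between mice as Spry1 (SE 0.38) or Plk2 (SE 0.66). Pairing comes from the replicate numbers in the titles. Same-number deviations correlated at 0.315, 0.246, 0.453, 0.465 and 0.172 for numbers 1 to 5, all above 0.1, so the numbers were taken to pair the mice. What they share is not stated, and only 3 of 5 CM and 2 of 5 CM/miR-126Δ/Δ mice correlated best with their own number. Exact permutation tests used scipy 1.17.1. No duplicate libraries were found. P-values with genotype alone rest on the spread between these mice, and those with the block on the spread left after the replicate numbers are fitted. Reference transcripts for seed matches were GENCODE M1 on the older build mm9, used for sequence only.

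The members, gene lists and tests were chosen with earlier results of these data known. Genes named are the members, Mir126a, Mir126b, Egfl7 and Plk2, in each list up to 4 genes with the smallest p under 0.05 and the 2 most abundant by RPKM (not all are printed), and the 3 genes most like each member. Alternatives were RLE factors, DESeq2 1.42.0, edgeR 4 quasi-likelihood, filterByExpr, no RPKM requirement, the replicate block and each mouse left out. Recovered reads, removal of the locus width trend, pairs left out of the blocked fit, and CM/miR-126Δ/Δ mice 3 and 5 left out were added after the data were seen.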

Additional observations from a re-analysis of the deposited data

Results flagged for a closer look

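Of 56 sets of 5 values tested for a single far value (Dixon's test at the 5% level, which chance alone would pass in about 2.8 of 56), 2 were marked. Plk2 was at 36.975 CPM in CM mouse 2, where the other CM mice were at 2.87 to 12.4 CPM. The 7 markers of LSK cells and their subsets summed to 2631.5 CPM in CM/miR-126Δ/Δ mouse 4, where the other mice of that genotype were at 3070.0 to 3228.8 CPM.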

How the results depend on the processing

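Genes called by p, fold change and RPKM numbered 54, and 115 with the replicate block, 111 with no requirement on RPKM, 89 with the block and pairs 3 and 5 left out, and 33 to 128 when 1 mouse was left out. Genes with an adjusted p under 0.05 numbered 2, and 47 with DESeq2, 4 with filterByExpr, 20 with the block, 10 without CM/miR-126Δ/Δ mice 3 and 5, 15 with the block and those pairs left out, and 1 to 7 when 1 mouse was left out. Genes with an unadjusted p under 0.05 numbered 1239, and 770 to 1773 when 1 mouse was left out. Spred2 turned from -0.01 to 0.0049 with filterByExpr, 0.0060 with the block and 0.0591 without CM/miR-126Δ/Δ mice 3 and 5, and ranged from -0.1266 to 0.0897 when a mouse or pair was left out. Spry4 turned to 0.111 without those 2 mice, and Spred3 to 0.0309 with the block and those pairs left out. With a mouse or pair left out, Spred3 ranged from -0.1964 to 0.0368, Spry2 from -0.0981 to 0.1654 and Spry4 from -0.4389 to 0.2211. The cause of these turns was not tested, and the intervals of these genes include 0. Spred1 (0.11 to 0.25), Nf1 (0.27 to 0.38) and Spry1 (-1.05 to -0.49) kept their direction in every fit that left out a mouse. Spry1 had an unadjusted p under 0.05 in 4 of those 10 fits and Spred1 in 1. DESeq2 gave Nf1 an adjusted p of 0.0811 and Spry1 one of 0.671, and Spry1 no longer passed an unadjusted p of 0.05 with DESeq2 or filterByExpr. Of 68 values of members under the alternatives that left out no single mouse or pair, 12 with the width trend removed had no p. These 12 kept the direction of the fit with genotype alone. Spred2 with the block and the trend removed was at -0.0379, beside 0.0060 with the block only. Of the other 56, 51 kept the direction of the fit with genotype alone and the side of an adjusted p of 0.05, and 5 turned. Beside the calls the block gave for Spry1 and the unadjusted p it gave for Spred1, the block changed no call of a member. Scaling moved the median of all log2 fold changes by at most 0.02. Few counts limit Mir126a, Mir126b and Spry4, and whether Spry3, listed on an unplaced contig, is at 0 because of depth was not tested.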
